A study of Mus musculus with 17 samples.

Results

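The genes described here are 43 genes of the NF-κB pathway, measured by RNA sequencing in sorted mouse synovial macrophages. They were taken by symbol from the 22859 genes of the count table. All 43 were present, and all 43 passed the filter on low counts that left 15272 genes for testing. They comprise the 5 NF-κB subunits, 3 classical and 3 atypical IκB proteins, and 6 genes grouped as A20, ubiquitin brakes and Tnfaip2. The others are 5 IκB kinase genes, 6 TRAF and cIAP genes, 7 adaptors and kinases of the TLR and IL-1 receptor pathway, and 8 upstream kinases and TAB adaptors.

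NF-κB is a family of dimeric transcription factors that wait in the cytoplasm, bound by inhibitors of the IκB family. Toll-like receptors, the IL-1 receptor and TNF receptors recruit adaptors and ubiquitin ligases, which activate TAK1 and then the IκB kinases. The kinases mark IκB for destruction, and the freed dimers enter the nucleus. Several of the genes that NF-κB induces, among them Nfkbia and Tnfaip3, encode inhibitors of the same pathway. A separate branch, run by the kinase NIK (encoded by Map3k14), processes the precursor encoded by Nfkb2 and acts through RelB. In macrophages the pathway controls the genes of inflammatory cytokines, chemokines and survival factors.

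The study asked how synovial macrophage subsets sense immune complexes that arrive from the circulation. Every mouse, the controls included, lacked Fcgr2b, the inhibitory Fc receptor, through a germline knockout. Adult mice of both sexes were used, and the IC groups received preformed complexes of ovalbumin and rabbit anti-ovalbumin antibody intravenously and were analysed 8 h later. The 3 sorted subsets, each as control and IC, were the LYVE1+CX3CR1+, the MHCII+CD11c- and the MHCII+CD11c+ macrophages, with 3 libraries in each group except the MHCII+CD11c+ IC group, which had 2. The controls are titled healthy, and neither the titles nor the study's text says whether these mice received any injection. The labels do not say whether libraries came from single or pooled animals, so p-values measure the spread between these 17 libraries, which may be partly technical.

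The libraries held between 2301913 and 7248939 counts over genes, and each started from 5 ng of RNA. Each of the 43 genes had at least 1 count in every library. The unit of level used throughout is CPM, a gene's count relative to the library total after TMM adjustment. In the controls, mean Lyve1, H2-Ab1 and Itgax differed between subsets in the direction of the labels, although Lyve1 was also high in MHCII+CD11c- cells. Mean Lyve1 was 1955 CPM in LYVE1+CX3CR1+ cells, 852 in MHCII+CD11c- cells and 146 in MHCII+CD11c+ cells, H2-Ab1 (an MHCII chain) was 26.0, 4116 and 8245 CPM, and Itgax (CD11c) was 1.43, 12.9 and 348 CPM. The summed CPM of 8 macrophage markers was 12901 to 19787 in the libraries of LYVE1+CX3CR1+ and MHCII+CD11c- cells and 8820 to 11938 in those of MHCII+CD11c+ cells. Fcgr2b, the deleted gene, was counted in all 17 libraries, with 167 to 1168 counts. Gene-level counts do not show which exons were read, so this value does not check the genotype. Genes detected at equal depth numbered 11547 to 13842 in the LYVE1+CX3CR1+ IC libraries and 16405 to 17326 in their controls, and the part of this in the differences was not tested.

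The 43 genes together took 0.602 to 0.746% of counts in the libraries of LYVE1+CX3CR1+ and MHCII+CD11c- cells and 0.798 to 0.955% in those of MHCII+CD11c+ cells. Per kilobase of exon, Nfkbia, which encodes the inhibitor IκBα, had the highest mean level of the 43 in all 6 groups, between 428 and 659 CPM per kb. Nfkbiz, which encodes the atypical nuclear protein IκBζ, came next in all 6, between 263 and 308 CPM per kb. Tnfaip3, which encodes the ubiquitin-editing enzyme A20, ranked 3 or 4, between 65.6 and 233 CPM per kb. Traf1, a signalling adaptor of TNF receptors, had the lowest level of the 43 in LYVE1+CX3CR1+ cells (0.484 CPM per kb in controls and 0.473 after IC) and ranked 18 in MHCII+CD11c+ controls (27.3 CPM per kb). The median SD of the 43 between libraries, on the log2 CPM scale, was 0.158 to 0.376 within groups, against 0.224 to 0.587 for all genes.

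**Figure D1:**
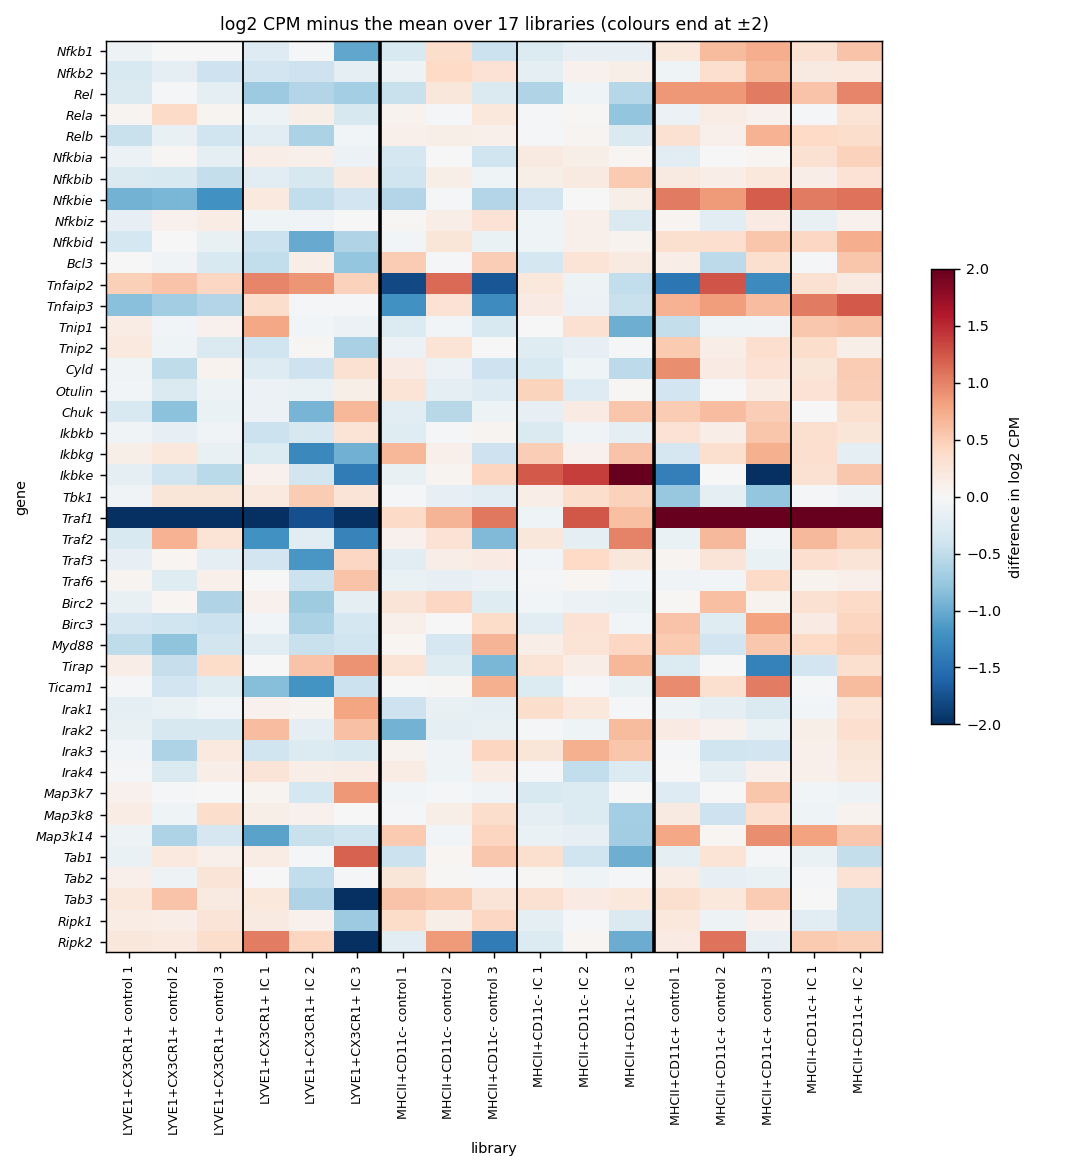
Log2 CPM of each of the 43 genes (rows, ordered by role) in each of the 17 libraries (columns, by group), as the difference from that gene's mean over the 17 libraries, with colours ending at ±2. Nfkbie, Rel, Tnfaip3 and Traf1 stand highest in the MHCII+CD11c+ libraries, and Traf1 lowest in the LYVE1+CX3CR1+ libraries.

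The first question was how far the subsets differed in these genes before any immune complex was given. LYVE1+CX3CR1+ controls differed from MHCII+CD11c+ controls in 13 of the 43 genes (edgeR quasi-likelihood test, adjusted p under 0.05), 12 of them lower and 1 higher in LYVE1+CX3CR1+ cells. Over all genes tested, 15.2% passed, 7.4% lower and 7.83% higher. The median log2 fold change was -0.18 over the 43 and 0.05 over all genes. MHCII+CD11c+ controls differed from MHCII+CD11c- controls in 4 of the 43, all higher in MHCII+CD11c+ cells (8.66% of all genes passed, 3.67% higher). LYVE1+CX3CR1+ and MHCII+CD11c- controls differed in 1 of the 43 (1.56% of all genes passed, 1.22% lower). These are bulk samples of sorted cells, in which a smaller number of cells of one kind and less RNA per cell cannot be told apart. The 4 genes of the second comparison, Nfkbie, Rel, Tnfaip3 and Traf1, were also among the 13 of the first, and both comparisons use the same MHCII+CD11c+ controls.

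Nfkbie encodes IκBε, an inhibitor that holds RelA and c-Rel dimers in the cytoplasm. Its level was 86.9, 88.6 and 72.0 CPM in the LYVE1+CX3CR1+ controls, 111, 162 and 111 CPM in the MHCII+CD11c- controls, and 344, 299.6 and 387 CPM in the MHCII+CD11c+ controls. The lowest MHCII+CD11c+ library was above the highest library of either other subset. Nfkbie was 4.16-fold lower in LYVE1+CX3CR1+ controls than in the MHCII+CD11c+ ones (log2 fold change -2.06 ± 0.20 SE, adjusted p = 2.68e-07) and 2.68-fold higher in MHCII+CD11c+ controls than in the MHCII+CD11c- ones (1.42 ± 0.20, adjusted p = 6.83e-05).

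Rel encodes c-Rel, a subunit with a transactivation domain that is prominent in blood cells. It was at 250.1, 297 and 267 CPM in the LYVE1+CX3CR1+ controls and at 225, 360.3 and 250.1 CPM in the MHCII+CD11c- controls. The MHCII+CD11c+ controls stood above all of these, at 558, 559 and 632 CPM. Rel was 2.15-fold lower in LYVE1+CX3CR1+ controls than in the MHCII+CD11c+ ones (-1.10 ± 0.19, adjusted p = 0.000164) and 2.09-fold higher in MHCII+CD11c+ controls than in the MHCII+CD11c- ones (1.07 ± 0.19, adjusted p = 0.000555).

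Tnfaip3 was at 432, 475 and 513 CPM in the LYVE1+CX3CR1+ controls and at 1241, 1378 and 1184 CPM in the MHCII+CD11c+ controls. The MHCII+CD11c- controls were split, with 1 library at 941 CPM and the others at 331 and 320.0 CPM, and all were below the MHCII+CD11c+ controls. Tnfaip3 was 2.68-fold lower in LYVE1+CX3CR1+ controls than in the MHCII+CD11c+ ones (-1.42 ± 0.31, adjusted p = 0.00484) and 2.39-fold higher in MHCII+CD11c+ controls than in the MHCII+CD11c- ones (1.25 ± 0.31, adjusted p = 0.0185). The second call was kept in 15 of 18 alternatives (adjusted p up to 0.0871). Among the settings that lost it was the fit without MHCII+CD11c+ control replicate 2 (1.19, adjusted p = 0.0509). The difference was 1.96 on the log2 scale without MHCII+CD11c- control replicate 2.

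Traf1 showed the widest range of the 43. It was at 4.25, 3.24 and 5.30 CPM in the LYVE1+CX3CR1+ controls (27, 12 and 38 counts), at 37.5, 46.1 and 59.8 CPM in the MHCII+CD11c- controls and at 233, 169 and 319 CPM in the MHCII+CD11c+ controls. The 3 subsets did not overlap. Traf1 was 54.7-fold lower in LYVE1+CX3CR1+ controls than in the MHCII+CD11c+ ones (-5.77 ± 0.53, adjusted p = 1.23e-05), 10.9-fold lower in LYVE1+CX3CR1+ controls than in the MHCII+CD11c- ones (-3.44 ± 0.54, adjusted p = 0.00618) and 5.03-fold higher in MHCII+CD11c+ controls than in the MHCII+CD11c- ones (2.33 ± 0.47, adjusted p = 0.00781). The call between LYVE1+CX3CR1+ and MHCII+CD11c- controls was lost without LYVE1+CX3CR1+ control replicate 1 (adjusted p = 0.0519).

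**Figure D2:**
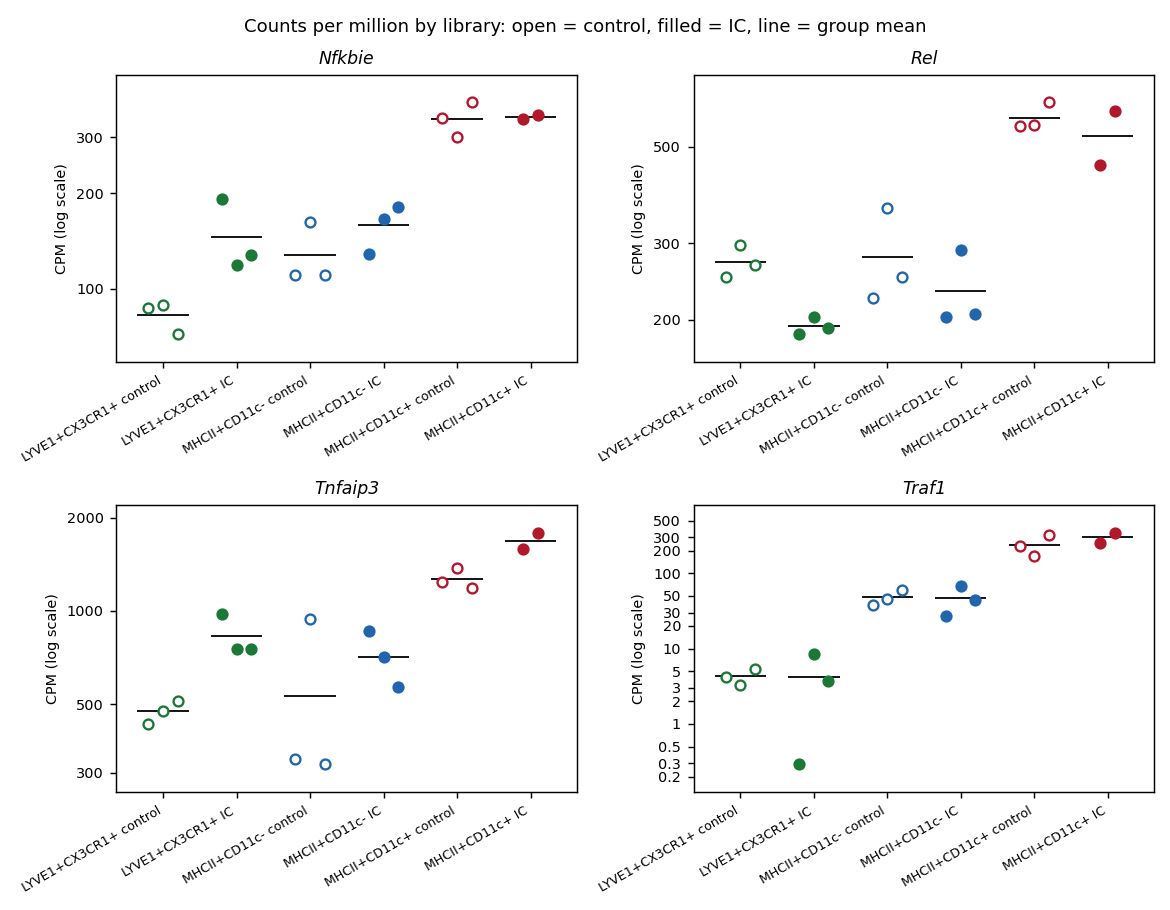
Level of Nfkbie, Rel, Tnfaip3 and Traf1 in every library, in CPM on a log axis, by subset. Open points are control libraries, filled points IC libraries and lines group means. Each MHCII+CD11c+ control library lies above every control library of the other subsets for all 4 genes, and Traf1 falls to 0.293 CPM in 1 LYVE1+CX3CR1+ IC library.

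The sequences around the start sites of these 4 genes are shown because these genes were higher together in MHCII+CD11c+ cells. Each window runs from 250 bases before to 50 bases after a RefSeq transcript start (GRCm38.p6), printed in the direction of transcription, and capitals mark matches to the 10-base NF-κB consensus, searched on both strands. The Nfkbie window lies at chr17:45555450-45555749 on the plus strand and holds 1 match, which begins 106 bases before the start. The Rel window lies at chr11:23770920-23771219 on the minus strand and holds overlapping matches that begin 92 and 91 bases before the start. The Tnfaip3 window lies at chr10:19015361-19015660 on the minus strand, with matches that begin 125 and 12 bases before the start, and a second Tnfaip3 window at chr10:19011914-19012213 holds 0. The Traf1 window lies at chr2:34961723-34962022 on the minus strand and holds 0 matches.
Nfkbie: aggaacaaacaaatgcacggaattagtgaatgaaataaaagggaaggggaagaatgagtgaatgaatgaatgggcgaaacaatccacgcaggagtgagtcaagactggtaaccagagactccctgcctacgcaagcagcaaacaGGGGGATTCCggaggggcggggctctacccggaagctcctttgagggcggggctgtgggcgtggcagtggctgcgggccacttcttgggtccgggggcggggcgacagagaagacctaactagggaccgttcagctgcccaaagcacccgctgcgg
Rel: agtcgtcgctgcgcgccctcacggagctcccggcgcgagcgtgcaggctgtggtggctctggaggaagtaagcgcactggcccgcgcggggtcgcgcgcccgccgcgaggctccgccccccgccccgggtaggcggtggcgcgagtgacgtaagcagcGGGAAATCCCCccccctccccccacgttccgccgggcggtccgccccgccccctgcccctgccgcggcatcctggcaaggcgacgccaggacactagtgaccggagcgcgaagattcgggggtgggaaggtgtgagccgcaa
Tnfaip3: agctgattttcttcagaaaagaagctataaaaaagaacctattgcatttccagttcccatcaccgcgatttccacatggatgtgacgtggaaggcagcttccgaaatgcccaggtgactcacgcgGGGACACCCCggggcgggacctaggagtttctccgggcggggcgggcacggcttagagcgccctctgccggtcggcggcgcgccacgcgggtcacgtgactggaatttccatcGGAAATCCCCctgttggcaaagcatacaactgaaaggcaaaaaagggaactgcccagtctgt
Traf1: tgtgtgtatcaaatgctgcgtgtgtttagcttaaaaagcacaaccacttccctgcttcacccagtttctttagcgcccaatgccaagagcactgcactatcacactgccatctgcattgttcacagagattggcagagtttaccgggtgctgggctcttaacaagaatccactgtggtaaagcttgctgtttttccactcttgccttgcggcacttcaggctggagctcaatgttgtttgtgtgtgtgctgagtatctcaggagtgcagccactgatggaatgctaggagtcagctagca

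Of the 43 genes, 36 had at least 1 such window, and 11 of these (30.6%) held a match, against 5.14% of 27025 genes with a window. The 11 were Bcl3, Cyld, Map3k7, Nfkb2, Nfkbia, Nfkbid, Nfkbie, Rel, Tnfaip3, Tnip1 and Traf3. Ikbkb, Map3k8, Nfkb1, Nfkbiz, Relb, Ripk2 and Tab1 had no window in the table. Nfkbia is shown as a gene with a match whose difference passed in no comparison of subsets. Its window lies at chr12:55492598-55492897 on the minus strand, and the match begins 29 bases before the start.
Nfkbia: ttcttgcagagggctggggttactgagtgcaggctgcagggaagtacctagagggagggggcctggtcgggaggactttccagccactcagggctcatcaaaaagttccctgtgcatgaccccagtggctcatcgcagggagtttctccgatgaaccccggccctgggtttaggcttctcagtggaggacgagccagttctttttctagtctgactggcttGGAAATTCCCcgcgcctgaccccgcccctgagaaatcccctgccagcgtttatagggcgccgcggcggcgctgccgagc

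In controls Nfkbia was at 746, 831 and 716 CPM in LYVE1+CX3CR1+ cells, at 634, 817 and 618 CPM in MHCII+CD11c- cells and at 701, 812 and 834 CPM in MHCII+CD11c+ cells. The 3 ranges overlapped.

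The other subunits followed the order of Rel between LYVE1+CX3CR1+ and MHCII+CD11c+ controls in part. Relb, the subunit of the NIK branch, was at 67.1, 82.4 and 69.2 CPM against 113, 98.3 and 149 CPM (-0.72 ± 0.20, adjusted p = 0.0144). Nfkb2, which encodes the p100 precursor, was at 165, 179.7 and 153 CPM against 191, 257 and 321 CPM (-0.63 ± 0.19, adjusted p = 0.0233). The libraries of the subsets did not overlap for either gene, and the exons of Nfkb2 overlap a gene on the opposite strand.

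Nfkb1, which encodes the p105 precursor of p50, was at 245, 263 and 261 CPM in LYVE1+CX3CR1+, 213, 334 and 195 CPM in MHCII+CD11c- and 303, 408 and 438 CPM in MHCII+CD11c+ controls. Its difference did not pass in any control comparison (adjusted p = 0.0862 between LYVE1+CX3CR1+ and MHCII+CD11c+ cells, and 0.0863 between MHCII+CD11c+ and MHCII+CD11c- cells). Rela, which encodes p65, was at 157, 199 and 158 CPM in LYVE1+CX3CR1+, 159, 148 and 176 CPM in MHCII+CD11c- and 141, 168 and 160.4 CPM in MHCII+CD11c+ controls, with overlapping ranges.

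Among the inhibitors, Nfkbid, which encodes the atypical nuclear protein IκBNS, was at 224, 286 and 258 CPM in LYVE1+CX3CR1+ and at 356, 358 and 418 CPM in MHCII+CD11c+ controls (-0.56 ± 0.17, adjusted p = 0.031). The ranges were apart. Nfkbib, which encodes IκBβ, was at 85.7, 84.6 and 74.7 CPM against 118, 114 and 121 CPM, and did not pass (adjusted p = 0.0661). Nfkbiz and Bcl3 passed no comparison.

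Of the kinases, Map3k14 (NIK) was at 88.8, 61.9 and 75.2 CPM in LYVE1+CX3CR1+ and at 162, 97.3 and 181 CPM in MHCII+CD11c+ controls (-0.96 ± 0.24, adjusted p = 0.00796), without overlap between the libraries. Chuk, which encodes the kinase IKKα, was at 35.8, 24.9 and 40.2 CPM against 62.5, 67.6 and 62.0 CPM (-0.93 ± 0.31, adjusted p = 0.0466), also without overlap. Tbk1, a kinase related to the IκB kinases that also phosphorylates IRF3, was the 1 gene of the 13 that was higher in LYVE1+CX3CR1+ controls. It was at 89.5, 111 and 111 CPM there and at 55.5, 81.7 and 54.8 CPM in MHCII+CD11c+ controls (0.69 ± 0.19, adjusted p = 0.0155).

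Of the adaptors and ligases, Birc3, which encodes the ubiquitin ligase cIAP2, was at 148, 143 and 139 CPM in LYVE1+CX3CR1+ and at 277, 159 and 327 CPM in MHCII+CD11c+ controls (-0.83 ± 0.22, adjusted p = 0.0108). Ticam1, which encodes the TLR3 and TLR4 adaptor TRIF, was at 33.9, 26.5 and 29.4 CPM against 66.6, 43.1 and 70.3 CPM (-1.0 ± 0.29, adjusted p = 0.0225). Myd88, the adaptor of most Toll-like receptors and of the IL-1 receptor, was at 47.1, 38.4 and 52.0 CPM against 96.6, 51.5 and 97.9 CPM (-0.83 ± 0.26, adjusted p = 0.0308). Birc3 and Ticam1 did not overlap between the subsets, whereas the lowest MHCII+CD11c+ library overlapped the LYVE1+CX3CR1+ range for Myd88.

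**Figure D3:**
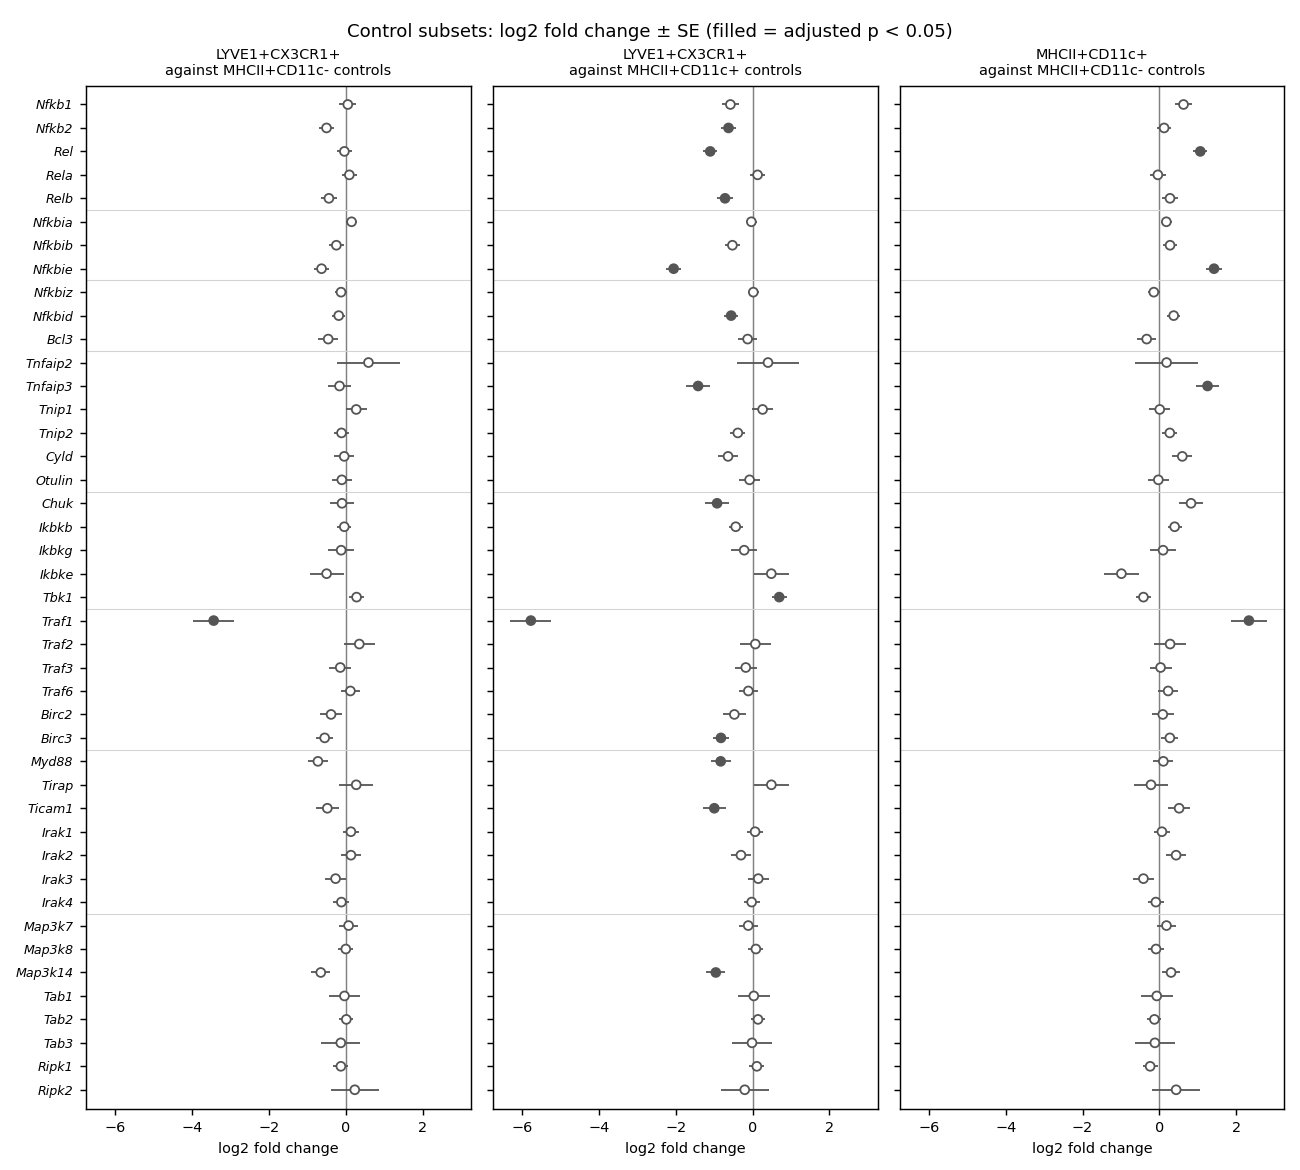
Log2 fold change of each of the 43 genes in the 3 comparisons of control subsets, with bars of 1 SE, and filled points where the adjusted p is under 0.05. Against MHCII+CD11c+ controls, LYVE1+CX3CR1+ controls show 12 filled points to the lower side and 1, Tbk1, to the higher side.

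The count of 13 depended on single libraries. It was 8, 8 and 7 without LYVE1+CX3CR1+ control replicate 1, 2 or 3, and 4 without MHCII+CD11c+ control replicate 3, and the 4 were again Nfkbie, Rel, Tnfaip3 and Traf1. These 4 were called in all 18 alternatives, and Birc3 and Map3k14 in 16. Nfkb2, Relb and Nfkbid were called in 14, Myd88 and Ticam1 in 13, Tbk1 in 12 and Chuk in 11 (adjusted p up to 0.193). Same-numbered controls of the MHCII+CD11c+ and MHCII+CD11c- subsets deviated together, and a fit of the controls alone with that number as a block gave 6 calls between them in place of 4, Nfkb1 and Chuk being added. Summed monocyte markers, of which Ccr2 was the main one, were 20.2 to 39.4 CPM in LYVE1+CX3CR1+, 231 to 514 CPM in MHCII+CD11c- and 555 to 1169 CPM in MHCII+CD11c+ controls, and 8 neutrophil markers summed to 30.8 to 40.5, 41.1 to 311 and 89.4 to 482 CPM. Ly6g and Mmp8 were at 0 in the LYVE1+CX3CR1+ controls. The part of these cells in the differences was not tested.

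The 3 subsets were compared in the same way after IC, a comparison added after the data had been seen. LYVE1+CX3CR1+ cells differed from MHCII+CD11c+ cells in 8 of the 43 genes, all lower in LYVE1+CX3CR1+ cells (11.9% of all genes passed, 8.42% lower). MHCII+CD11c+ cells differed from MHCII+CD11c- cells in 4, all higher in MHCII+CD11c+ cells (4.03% of all genes, 2.29% higher), and LYVE1+CX3CR1+ cells from MHCII+CD11c- cells in 3, all lower in LYVE1+CX3CR1+ cells (5.54% of all genes, 4.79% lower). Nfkbie, Rel and Traf1 passed in both comparisons against MHCII+CD11c+ cells, in controls and after IC.

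After IC Rel was at 185, 203 and 191 CPM in LYVE1+CX3CR1+, 203, 289 and 206 CPM in MHCII+CD11c- and 454 and 604 CPM in MHCII+CD11c+ cells. It was 1.45 ± 0.21 lower on the log2 scale in LYVE1+CX3CR1+ cells than in the MHCII+CD11c+ ones (adjusted p = 3.58e-05). Nfkbie was at 191, 119 and 127 CPM, at 128, 166 and 181 CPM and at 342 and 353 CPM in the same order of subsets, and its difference between LYVE1+CX3CR1+ and MHCII+CD11c+ cells was -1.25 ± 0.23 (adjusted p = 0.000499). Both genes were higher in MHCII+CD11c+ cells than in the MHCII+CD11c- ones after IC, Rel by 1.19 ± 0.21 (adjusted p = 0.000973) and Nfkbie by 1.13 ± 0.23 (adjusted p = 0.00316).

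Traf1 was at 0.293, 8.50 and 3.73 CPM (1, 27 and 9 counts) in LYVE1+CX3CR1+, 27.1, 68.0 and 43.8 CPM in MHCII+CD11c- and 253 and 346 CPM in MHCII+CD11c+ cells after IC. The subsets stayed apart in every library. Its differences were -6.17 ± 0.64 between LYVE1+CX3CR1+ and MHCII+CD11c+ cells (adjusted p = 2.61e-05), -3.47 ± 0.60 between LYVE1+CX3CR1+ and MHCII+CD11c- cells (adjusted p = 0.00359) and 2.69 ± 0.52 between MHCII+CD11c+ and MHCII+CD11c- cells (adjusted p = 0.00873).

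Nfkbid was at 212, 142 and 188 CPM in LYVE1+CX3CR1+ cells after IC, 269, 305 and 300.2 CPM in MHCII+CD11c- and 378 and 472 CPM in MHCII+CD11c+ cells. It was lower in LYVE1+CX3CR1+ cells than in either (-0.69 ± 0.18, adjusted p = 0.0203, and -1.23 ± 0.20, adjusted p = 0.000119). The first of these calls was kept in 8 of 17 alternatives, with an adjusted p of up to 0.105. Map3k14 was at 45.3, 69.6 and 72.2 CPM, at 86.9, 85.1 and 58.9 CPM and at 166 and 138 CPM, and was higher in MHCII+CD11c+ cells than in LYVE1+CX3CR1+ cells (the reverse difference was -1.29 ± 0.27, adjusted p = 0.00227) and than in MHCII+CD11c- cells (0.98 ± 0.27, adjusted p = 0.0359). Ticam1 was at 19.3, 15.1 and 25.7 CPM in LYVE1+CX3CR1+ and 33.8 and 53.5 CPM in MHCII+CD11c+ cells (-1.13 ± 0.34, adjusted p = 0.0275), a call kept in 9 of 16 alternatives (adjusted p up to 0.44). The call of Map3k14 between the MHCII+ subsets was kept in 10 of 16 (adjusted p up to 0.29).

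Ikbke, Nfkb1 and Traf2 passed in a subset comparison after IC and in none of the controls. Ikbke, which encodes the inducible kinase IKKε, was at 37.2, 27.1 and 13.3 CPM in LYVE1+CX3CR1+ and 81.6, 91.1 and 203 CPM in MHCII+CD11c- cells after IC (-2.26 ± 0.44, adjusted p = 0.00587). Nfkb1 was at 221, 259 and 128 CPM in LYVE1+CX3CR1+ and 324 and 389 CPM in MHCII+CD11c+ cells (-0.81 ± 0.25, adjusted p = 0.0317). Traf2, a ligase adaptor of TNF receptors, was at 9.07, 17.9 and 8.30 CPM against 32.9 and 29.1 CPM (-1.39 ± 0.47, adjusted p = 0.0498). The call of Traf2 was kept in 4 of 16 alternatives (adjusted p up to 0.215) and that of Nfkb1 in 8 of 16 (up to 0.303). None of these differences was shown to differ from that in the controls. The count of 8 was 5 without LYVE1+CX3CR1+ IC replicate 1 and 5 without MHCII+CD11c+ IC replicate 2, and the count of 4 between the MHCII+ subsets was 0 without MHCII+CD11c+ IC replicate 2, which left 1 library in that group.

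The second question was whether these genes changed with IC within each subset. At 8 h none of the 43 passed the edgeR test in any subset, where the share of all genes that passed was 0.963% for LYVE1+CX3CR1+ cells, 0.701% for MHCII+CD11c- cells and 0.216% for MHCII+CD11c+ cells. Before adjustment, 8, 7 and 4 of the 43 had a p under 0.05, against 14.1, 9.99 and 5.21% of all genes. In the same order, DESeq2 called 1 gene (Nfkbie), 1 gene (Ikbke) and 0, and limma with voom called 0, 1 (Ikbke) and 0. The median log2 fold change of the 43 was -0.02, -0.11 and 0.05 in the 3 subsets, beside -0.14, -0.03 and 0.01 for all genes. The libraries did not overlap between IC and control for 4 higher and 4 lower genes of the 43 in LYVE1+CX3CR1+ cells (4.95 and 16.7% of all genes did so), for 7 and 5 in MHCII+CD11c- cells (8.72 and 8.48% of all genes) and for 8 and 3 in MHCII+CD11c+ cells (14.1 and 9.02% of all genes).

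**Figure D4:**
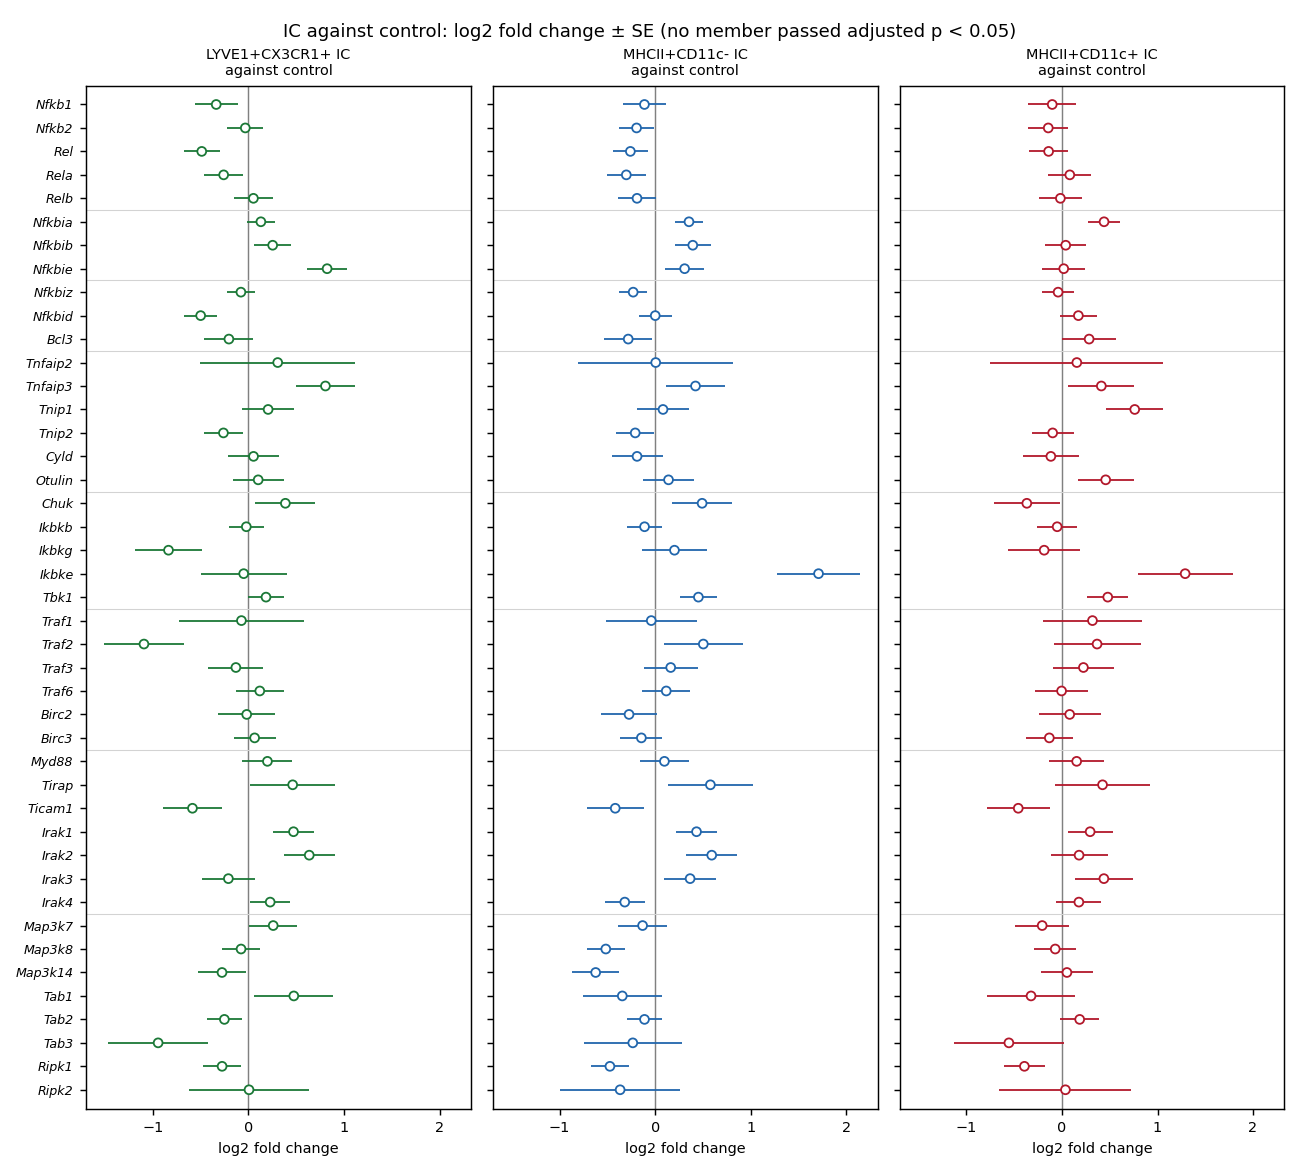
Log2 fold change (IC against control) of each of the 43 genes in the 3 subsets, with bars of 1 SE. No point passes an adjusted p of 0.05, and Nfkbie in LYVE1+CX3CR1+ cells (0.82) and Ikbke in MHCII+CD11c- cells (1.71) have the lowest adjusted p of their subsets.

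In LYVE1+CX3CR1+ cells the smallest p on the higher side belonged to Nfkbie, which was at 191, 119 and 127 CPM after IC and at 86.9, 88.6 and 72.0 CPM in controls. Every IC library was above every control, with a 1.77-fold difference (0.82 ± 0.21, adjusted p = 0.0536). It passed in DESeq2 and, among other settings of edgeR, without LYVE1+CX3CR1+ IC replicate 2. Tnfaip3 was at 977, 751 and 755 CPM after IC and at 432, 475 and 513 CPM in controls, again without overlap (0.81 ± 0.31, adjusted p = 0.242). Irak2, a kinase of the IL-1 receptor complex, was at 83.1, 47.5 and 82.1 CPM against 49.1, 43.8 and 43.8 CPM (0.64 ± 0.27, adjusted p = 0.273), and 1 IC library lay within the control range.

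On the lower side in LYVE1+CX3CR1+ cells stood Nfkbid, at 212, 142 and 188 CPM after IC and 224, 286 and 258 CPM in controls (-0.50 ± 0.18, adjusted p = 0.185). Rel was at 185, 203 and 191 CPM after IC and 250.1, 297 and 267 CPM in controls (-0.49 ± 0.19, adjusted p = 0.222). Neither gene overlapped between the groups. Traf2 was at 9.07, 17.9 and 8.30 CPM against 16.9, 33.8 and 25.4 CPM (-1.09 ± 0.42, adjusted p = 0.229), with overlap.

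In MHCII+CD11c- cells the smallest p on the higher side belonged to Ikbke, at 81.6, 91.1 and 203 CPM after IC and 31.6, 36.2 and 47.1 CPM in controls. The groups did not overlap, with a 3.27-fold difference (1.71 ± 0.44, adjusted p = 0.0975). IC replicate 3 was more than 2-fold above both other IC libraries. On leaving out 1 library the log2 fold change of Ikbke was 1.17 to 1.94, with an edgeR adjusted p of up to 0.508. Nfkbia was at 921, 885 and 838 CPM after IC and at 634, 817 and 618 CPM in controls (0.35 ± 0.15, adjusted p = 0.398). Tbk1 was at 103, 119 and 129 CPM against 91.1, 84.3 and 81.2 CPM (0.45 ± 0.19, adjusted p = 0.412). Both were higher in every IC library than in any control. The exons of Ikbke overlap genes on the opposite strand, and whether counting used strand is not stated.

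On the lower side in MHCII+CD11c- cells were 3 upstream kinases, each lower in every IC library than in any control. Map3k8, which encodes the kinase TPL2, was at 133, 127 and 95.2 CPM against 148, 166 and 194 CPM (-0.52 ± 0.20, adjusted p = 0.32). Map3k14 was at 86.9, 85.1 and 58.9 CPM against 136, 91.4 and 129 CPM (-0.62 ± 0.24, adjusted p = 0.339). Ripk1, the kinase of the TNF receptor complex, was at 169, 186 and 157 CPM against 248, 208 and 255 CPM (-0.47 ± 0.20, adjusted p = 0.381). The 8 genes of this role all had a log2 fold change below 0 in this subset, from -0.62 to -0.11, and none passed. Of the 15272 genes tested, 7974 were also below 0 there. The 8 genes were read in the same libraries, so their directions are not separate observations.

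In MHCII+CD11c+ cells, with 2 IC libraries, Nfkbia was at 1002 and 1121 CPM after IC and 701, 812 and 834 CPM in controls (0.44 ± 0.17, adjusted p = 0.735). Ikbke was at 43.2 and 50.9 CPM against 13.6, 34.9 and 7.94 CPM (1.29 ± 0.50, adjusted p = 0.744). Tnip1, which encodes the A20-binding protein ABIN1, was at 105 and 109 CPM against 52.1, 68.2 and 68.8 CPM (0.76 ± 0.30, adjusted p = 0.75). All 3 were higher in each IC library than in any control. The smallest p on the lower side belonged to Ripk1 (-0.39 ± 0.22), Ticam1 (-0.46 ± 0.33) and Chuk (-0.37 ± 0.35), each with an adjusted p of 1. The 8 neutrophil markers summed to 25.1 to 29.5 CPM in the IC libraries of this subset against 89.4 to 482 CPM in its controls. Ly6g and Camp were at 0 after IC. Higher after IC were the sums of 5 mast cell markers (20.4 to 46.2 against 0.425 to 3.40 CPM) and 6 endothelial markers (26.4 to 27.7 against 3.03 to 15.0 CPM). The sums of monocyte, fibroblast and lymphocyte markers overlapped between IC and control. Mean Csf1r, which encodes the M-CSF receptor, was 1154 CPM after IC and 696 CPM in controls, Mertk 69.1 and 30.2 CPM, and Timd4 50.4 and 11.4 CPM. These genes were picked from lists of 8 macrophage and 8 subset markers, whose other members are not given singly for this comparison. The 8 macrophage markers, Csf1r and Mertk among them, summed to 9333 to 11938 CPM after IC and 8820 to 10313 CPM in controls. These ranges overlapped. The same neutrophil sum was 64.4 to 112 CPM after IC and 41.1 to 311 CPM in controls of MHCII+CD11c- cells, and 12.6 to 32.8 against 30.8 to 40.5 CPM in LYVE1+CX3CR1+ cells. The part of these markers in the IC differences was not tested.

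None of the subunits passed with IC. With the subsets in the order LYVE1+CX3CR1+, MHCII+CD11c- and then MHCII+CD11c+, the log2 fold changes were -0.34, -0.11 and -0.10 for Nfkb1, -0.03, -0.20 and -0.14 for Nfkb2, and -0.26, -0.30 and 0.08 for Rela. Relb gave 0.05, -0.19 and -0.02, and Rel gave -0.49, -0.26 and -0.14. The lowest adjusted p among the subunits was that of Rel in LYVE1+CX3CR1+ cells. The classical inhibitors had values above 0 in all 3 subsets, 0.13, 0.35 and 0.44 for Nfkbia, 0.25, 0.39 and 0.04 for Nfkbib and 0.82, 0.31 and 0.02 for Nfkbie, and none passed. In the same order of subsets, 6155, 7298 and 7797 of the 15272 genes tested were above 0.

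Whether the IC difference itself varied between subsets was tested with an interaction term. None of the 43 passed in edgeR, DESeq2 or voom, and 0.0262, 0.0327 and 0% of all genes passed in edgeR for LYVE1+CX3CR1+ minus MHCII+CD11c-, LYVE1+CX3CR1+ minus MHCII+CD11c+ and MHCII+CD11c+ minus MHCII+CD11c- cells. Before adjustment, 3, 3 and 0 of the 43 had a p under 0.05, beside 7.54, 8.02 and 3.25% of all genes. Those of the first comparison were Ikbke (-1.76 ± 0.63 SE), Ikbkg (-1.04 ± 0.49), which encodes the scaffold NEMO of the IκB kinase complex, and Traf2 (-1.60 ± 0.59). Those of the second were Nfkbid (-0.67 ± 0.26), Nfkbie (0.80 ± 0.31) and Traf2 (-1.46 ± 0.62), and the adjusted p of these 6 values was 0.47 to 0.645.

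Control libraries numbered 2 of both MHCII+ subsets stood apart in several of the 43 genes. Tnfaip2, a TNF-inducible gene, was at 39.2, 301 and 41.8 CPM in the MHCII+CD11c- controls and 50.4, 327 and 57.1 CPM in the MHCII+CD11c+ controls, against 159.9, 128 and 97.4 CPM and 169.7 and 155 CPM after IC. In MHCII+CD11c- control replicate 2, Tnfaip2, Tnfaip3 and Ripk2 were more than 2-fold above both other libraries of the group, and in MHCII+CD11c+ control replicate 2 this held for Tnfaip2 and Ikbke. Ripk2, the kinase of the NOD receptors, was at 27.9, 59.0 and 12.4 CPM and at 36.6, 69.5 and 29.1 CPM in the 2 control groups. Of all genes tested, 7.6% stood as far above or below both other libraries in the first of these libraries and 10.4% in the second, and the third libraries reached 12.8 and 16.9%. Mitochondrial genes took 11.9 and 13.4% of counts in these libraries and 6.80 to 9.84% in the other MHCII+ controls. Their share was 11.3% in LYVE1+CX3CR1+ control replicate 2, against 8.05 and 8.22% in the others of its group, and 12.2% in MHCII+CD11c- IC replicate 3. In that IC library Ikbke was more than 2-fold above both other libraries of its group, and 11.3% of all genes stood as far above or below. The part of these libraries in the differences was not tested.

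**Figure D5:**
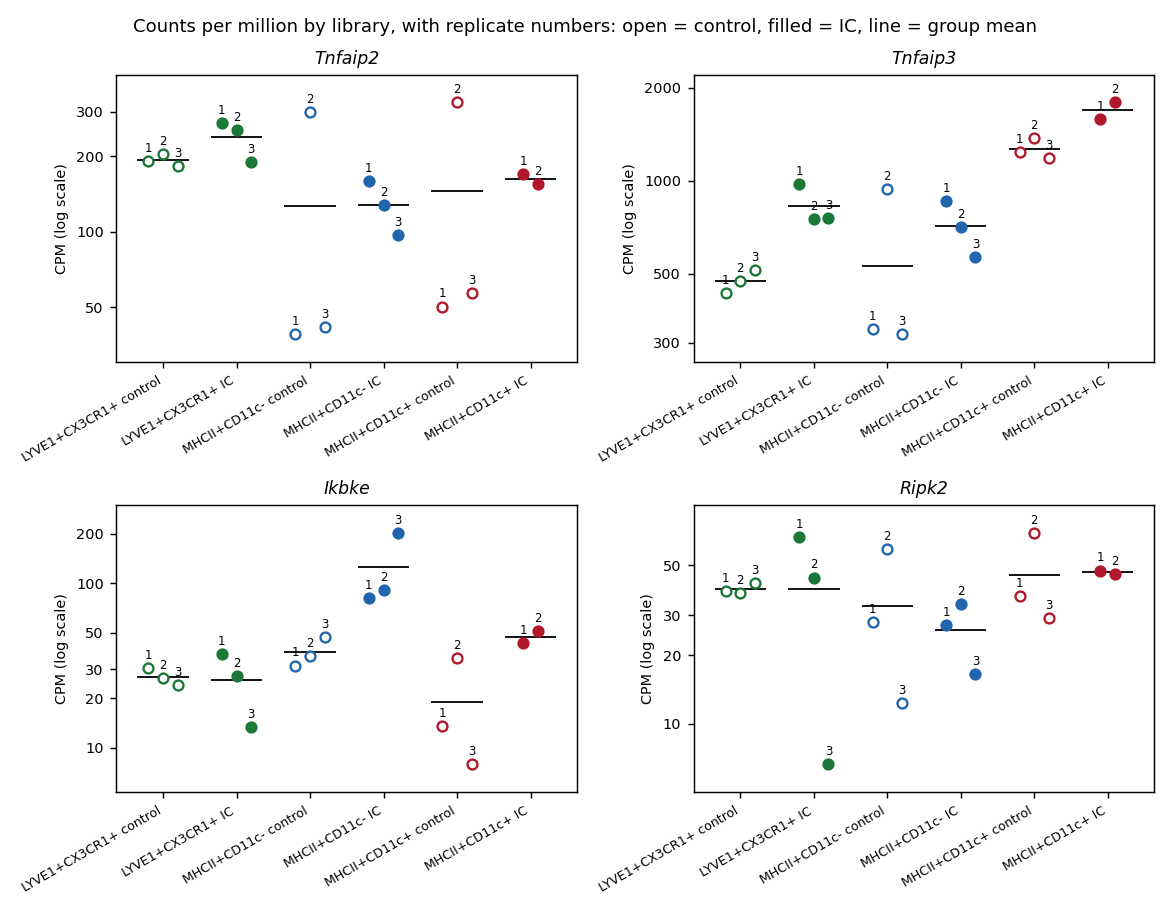
Level of Tnfaip2, Tnfaip3, Ikbke and Ripk2 in every library, in CPM on a log axis, by subset, with the replicate number beside each point. Open points are controls and filled points IC libraries. Tnfaip2 in the MHCII+ control libraries numbered 2 (301 and 327 CPM) lies above all IC libraries of those subsets.

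The values without both control libraries numbered 2 are given as a description only. The libraries were picked after the data had been seen, for high levels of genes that include those called below, while the libraries numbered 3, which stood apart in more genes, were kept. The gain in calls therefore supports no IC difference. Without both, 3 of the 43 were called in MHCII+CD11c- cells (1.78% of all genes passed), Tnfaip2 (log2 fold change 1.66), Tnfaip3 (1.12) and Ikbke (1.67). With all libraries the values were 0.01, 0.42 and 1.71, and none passed. In MHCII+CD11c+ cells 2 were called, Tnfaip2 (1.59) and Ikbke (2.09), where 1.04% of all genes passed, and Tnfaip3 was not (0.47). Leaving out MHCII+CD11c- control replicate 2 alone gave Tnfaip3 as the call in MHCII+CD11c- cells (1.13), and leaving out MHCII+CD11c+ control replicate 2 alone gave Ikbke as the call in MHCII+CD11c+ cells (2.09). In the comparisons of controls, the count without both was 4 in place of 1 between LYVE1+CX3CR1+ and MHCII+CD11c- cells, Map3k14, Myd88 and Tnfaip2 being added (4.3% of all genes passed). It was 15 in place of 13 between LYVE1+CX3CR1+ and MHCII+CD11c+ cells (16.8%), and 6 in place of 4 between the MHCII+ subsets (10%).

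In all, 16 of the 43 genes were called in at least 1 of the 12 comparisons with every library in, and 27 in none. The matching share of all genes over the 12 was not computed. The comparison of LYVE1+CX3CR1+ with MHCII+CD11c+ controls alone called 15.2% of all genes, so the 16 are a tally only. Those called in none included Nfkbia, Nfkbib, Nfkbiz, Rela, Ikbkb, Ikbkg, Traf3, Traf6, Tab1, Tab2, Tab3, Map3k7 and all 4 genes of the IRAK kinases.

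The other genes of the pathway were followed through a list of 27 genes, among them Tnip3, Malt1, Otud7b and Nlrc3. None of the 27 passed in an IC comparison in edgeR (1, 2 and 1 had an unadjusted p under 0.05 in the 3 subsets). Between LYVE1+CX3CR1+ and MHCII+CD11c+ controls 5 passed, 2 lower and 3 higher in LYVE1+CX3CR1+ cells (15.2% of all genes passed). Tnip3, which encodes an A20-binding protein, averaged 4.11 CPM against 526 CPM (-7.16 ± 0.51, adjusted p = 1.22e-06), and Malt1, a protease that joins antigen and C-type lectin receptors to NF-κB, 35.7 against 340 CPM (-3.26 ± 0.54, adjusted p = 0.00207). Nlrc3, a negative regulator of TRAF6 signalling (4.04 ± 0.55), the deubiquitinase gene Otud7b (2.27 ± 0.34) and the ubiquitin ligase gene Peli1 (0.86 ± 0.20) were higher in LYVE1+CX3CR1+ cells. Between MHCII+CD11c+ and MHCII+CD11c- controls 2 were higher in MHCII+CD11c+ cells, Tnip3 (3.04 ± 0.43) and Malt1 (2.27 ± 0.54), and 3 lower, Otud7b (-1.72 ± 0.35), Nlrc3 (-2.09 ± 0.56) and Rnf31 (-0.83 ± 0.25), which encodes the linear ubiquitin ligase HOIP, where 8.66% of all genes passed. Between LYVE1+CX3CR1+ and MHCII+CD11c- controls 1 passed, Tnip3 (-4.11 ± 0.51, adjusted p = 0.00116), beside 1.56% of all genes.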

How the data were processed

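RNA from sorted synovial macrophages was sequenced in 17 libraries of 6 groups (5 ng of RNA each, a stranded total RNA kit). The authors trimmed 3 bases from read 1 and adapters, aligned reads with HISAT2 to mm10 and counted them per gene with featureCounts, and the deposited values are raw counts. The strand setting and the tool versions are not given in the sources used here. The 17 columns agreed between the whole-series table and the files of single samples, and 1 further column, which matched no label and summed to 0, was not used.

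Genes were filtered with filterByExpr (minimum count 10), scaled by TMM and tested with edgeR's quasi-likelihood F test (edgeR 4.0.16, R 4.3.3) in 1 fit of all libraries with 11 residual degrees of freedom. P-values were adjusted by Benjamini-Hochberg over 15272 genes and called under 0.05. Standard errors are Wald errors of the fit. Alternatives used DESeq2 1.42.0, limma 3.58.1 with voom quality weights and sva 3.50.0. The fit was tested on simulated counts with 200 changed genes.

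Totals of 2301913 to 7248939 counts limit the precision of low genes. Counting error is the only error that depth describes. Same-numbered controls deviated together between the MHCII+CD11c+ and MHCII+CD11c- subsets (r from 0.254 to 0.571, against -0.434 to 0.243 for different numbers). Between LYVE1+CX3CR1+ and MHCII+CD11c- controls r was 0.132 to 0.303 for the same number and -0.251 to 0.216 for different numbers. These ranges overlapped, so pairing by number was not shown there. Same-numbered libraries of the other group pairs did not deviate together in every pair, and the replicate block was an alternative.

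The 43 genes and the other lists were chosen with earlier results of these data known. Genes called in a comparison are given by library, with the 3 smallest p on each side of an IC comparison. Of the other lists, genes called with IC are named, and up to 4 called genes on each side of a subset comparison of controls. Exon lengths came from GENCODE. The exons of 12 of the 43 (Bcl3, Ikbke, Ikbkg, Irak2, Irak3, Irak4, Myd88, Nfkb2, Nfkbib, Ripk1, Tirap and Tnfaip2) overlap a counted gene on the opposite strand, and those of Map3k14 overlap 1 on the same strand, so their counts are uncertain. Promoter windows of 300 bases came from RefSeq.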

Additional observations from a re-analysis of the deposited data

How the results depend on the processing

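The count of the 43 genes called with IC in LYVE1+CX3CR1+ cells was 0 and became 1 at an adjusted p under 0.1, with DESeq2 size factors, with no filter on low counts, with a minimum count of 30, with a length offset, in DESeq2 and with only the groups compared, and 2 with surrogate variables. In MHCII+CD11c- cells it became 1 at an adjusted p under 0.1, with voom and in DESeq2, and 3 without both control libraries numbered 2, and in MHCII+CD11c+ cells 2 without both. Leaving out a replicate gave 0 to 1 in each subset. Between LYVE1+CX3CR1+ and MHCII+CD11c- controls the count of 1 became 2 with voom and 4 without both libraries numbered 2, and 0 to 1 on leaving out a replicate. Between LYVE1+CX3CR1+ and MHCII+CD11c+ controls the count of 13 became 6 with surrogate variables and 4 to 13 on leaving out a replicate. After IC, the count of 3 against MHCII+CD11c- cells became 6 at an adjusted p under 0.1, 7 with surrogate variables and 2 to 4 on leaving out a replicate. The count of 8 against MHCII+CD11c+ cells became 5 with DESeq2 size factors, 13 with surrogate variables and 5 to 9 on leaving out a replicate. That of 4 between the MHCII+ subsets became 9 with voom and 0 to 4 on leaving out a replicate. The causes were not tested.

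With the replicate number as a block over all libraries, the counts were 0 in each IC comparison and interaction, 1, 13 and 5 among controls (LYVE1+CX3CR1+ against MHCII+CD11c-, LYVE1+CX3CR1+ against MHCII+CD11c+ and MHCII+CD11c+ against MHCII+CD11c-), and 3, 8 and 4 after IC in the same order. With the block within controls they were 1, 15 and 6, and within IC libraries 3, 7 and 4. Over all alternatives run, 0 of the 43 passed in any interaction, and no gene named in a comparison changed the direction of a call. Of 33 called differences of single genes, 14 were called in every alternative run for them. A leave-one-out fit that leaves 1 library in the MHCII+CD11c+ IC group assumes that this library varies like the other groups. Genes at few counts, such as Traf1 in LYVE1+CX3CR1+ cells, carry the largest error from depth.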

Other observations

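Receptors that feed the pathway were followed through a list of 19 genes. With IC, 2 passed in LYVE1+CX3CR1+ cells, 0 in MHCII+CD11c- cells and 1 in MHCII+CD11c+ cells (edgeR). Over all genes tested, 0.963, 0.701 and 0.216% passed in the same order. Before adjustment, 5, 4 and 6 of the 19 had an edgeR p under 0.05, beside 14.1, 9.99 and 5.21% of all genes. Of these, 1, 4 and 6 were higher after IC and 4, 0 and 0 lower. Over all genes, 429, 792 and 566 had such a p and were higher, and 1730, 734 and 229 were lower. Of the 147 genes called with IC in LYVE1+CX3CR1+ cells, 124 were lower, and of the 107 in MHCII+CD11c- cells, 24 were. In LYVE1+CX3CR1+ cells Cd14, the co-receptor of TLR4, rose from 372 ± 54.5 to 713 ± 72.0 CPM (SD, n = 3 and 3 libraries; log2 fold change 0.94 ± 0.21 SE, adjusted p = 0.0291). Tlr9, a sensor of DNA, fell there from 25.3 ± 5.31 to 7.32 ± 2.16 CPM (-1.78 ± 0.37, adjusted p = 0.0197). In MHCII+CD11c+ cells Tnfrsf11a, which encodes RANK, rose from 60.4 ± 13.5 (n = 3) to 126 ± 5.13 CPM (n = 2) (1.05 ± 0.21, adjusted p = 0.029). In the same comparison 8 neutrophil markers summed to 89.4 to 482 CPM in controls and 25.1 to 29.5 CPM after IC. Mean Csf1r, picked from the 8 macrophage markers, was 696 and 1154 CPM, while the 8 summed to 8820 to 10313 and 9333 to 11938 CPM, which overlap. The mast cell and endothelial marker sums, given above, were higher after IC. The part of all these markers in the difference of Tnfrsf11a was not tested. Between LYVE1+CX3CR1+ and MHCII+CD11c+ controls 11 of the 19 passed, 7 higher and 4 lower in LYVE1+CX3CR1+ cells (7.83 and 7.4% of all genes). Tnfrsf11a averaged 197 against 60.4 CPM, Tlr7, a sensor of single-stranded RNA, 153 against 23.5 CPM, and Nod1, a sensor of bacterial cell walls, 36.4 against 8.62 CPM, whereas Tlr9 averaged 25.3 against 64.4 CPM and Nod2 12.3 against 37.8 CPM. Between MHCII+CD11c+ and MHCII+CD11c- controls 1 was higher and 6 were lower in MHCII+CD11c+ cells (8.66% of all genes passed), and between LYVE1+CX3CR1+ and MHCII+CD11c- controls 1, Tlr9, was lower in LYVE1+CX3CR1+ cells (1.56% of all genes passed).

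Of a list of 29 genes known as NF-κB targets, 28 were in the table and 26 were tested. With IC, 1 passed and fell in LYVE1+CX3CR1+ cells, and 3 passed and rose in MHCII+CD11c- cells (edgeR). In MHCII+CD11c+ cells 0 of the 26 passed, and the shares of all genes are those given above. Before adjustment, 6, 13 and 4 of the 26 had an edgeR p under 0.05, beside 14.1, 9.99 and 5.21% of all genes. Of these, 4, 11 and 4 were higher after IC and 2, 2 and 0 lower, where over all genes 429, 792 and 566 were higher and 1730, 734 and 229 lower. Most genes called with IC were lower in LYVE1+CX3CR1+ cells (124 of 147) and higher in MHCII+CD11c- cells (83 of 107). The chemokine gene Ccl2 fell in LYVE1+CX3CR1+ cells from 240 ± 60.1 to 97.0 ± 9.30 CPM (-1.30 ± 0.21, adjusted p = 0.00332). In MHCII+CD11c- cells the chemokine gene Ccl3 rose from 40.6 ± 11.3 to 117 ± 44.1 CPM (1.52 ± 0.29, adjusted p = 0.0145), Sod2, which encodes mitochondrial superoxide dismutase, from 73.4 ± 19.7 to 148 ± 35.1 CPM (1.01 ± 0.20, adjusted p = 0.0162), and the adhesion molecule gene Vcam1 from 5.96 ± 2.80 to 43.7 ± 19.7 CPM (2.88 ± 0.64, adjusted p = 0.0461). In each case no IC library overlapped a control. Between LYVE1+CX3CR1+ and MHCII+CD11c+ controls 12 of the 26 were lower and 2 higher in LYVE1+CX3CR1+ cells, beside 7.4 and 7.83% of all genes. Il6 averaged 3.18 against 179 CPM, Plaur, which encodes the urokinase receptor, 127 against 370.1 CPM, and Ptgs2, which encodes cyclooxygenase-2, 14.3 against 132 CPM. Ccl5 was at 0 in every LYVE1+CX3CR1+ control, and against a floor of 3 counts per library it was at least 13.6-fold lower. Ccl3 (124 against 42.7 CPM) and Bcl2l1 (47.7 against 13.3 CPM), a survival gene, were higher in LYVE1+CX3CR1+ cells. Between MHCII+CD11c+ and MHCII+CD11c- controls 5 were higher and 0 lower in MHCII+CD11c+ cells (3.67% of all genes were higher), and between LYVE1+CX3CR1+ and MHCII+CD11c- controls 1 was higher and 4 were lower in LYVE1+CX3CR1+ cells (1.22% of all genes were lower).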
